A study of Mus musculus with 11 samples.

Results

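The major urinary proteins (MUPs) are small secreted lipocalins, and the 10 genes described here, Mup1, Mup2, Mup3, Mup7, Mup9, Mup10, Mup11, Mup17, Mup18 and Mup20, were found by symbol among the 31053 genes of the count tables. All 10 were matched, and they were followed singly and as a sum. The 10 genes hold nearly all counted Mup signal of the liver sections, 96.1% to 98.7% of the unique molecular identifier (UMI) counts of the 21 Mup genes in the tables.

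The study profiled 11 mouse liver sections by Visium, a slide-based spatial RNA assay in which each spot captures the RNA of a small tissue region that can hold several cells. The 0 h group held 3 sections (replicates 2, 3 and 4) labelled healthy and uninjured. The injured groups were labelled POD and held sections taken after acetaminophen (APAP): a pair at 24 h and another at 36 h, each lettered A and B, and 4 sections lettered A to D at 48 h. APAP is a drug that in overdose kills the hepatocytes around the central vein. Per the study's methods the animals were adult C57BL/6JCrl mice, male unless stated otherwise, fasted before APAP was injected, whereas the sources used here do not say whether the uninjured mice were fasted. The methods give n = 1 per time point for the mouse spatial data, whereas the labels list several sections per time point and name no animal. Read as 1 mouse per time point, mouse and time point cannot be told apart. Every p-value is therefore taken to cover only the spread between sections, which may be technical. The sections lay on slides with the same 4992 barcoded positions, and the labels give no slide, batch or day.

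Hepatocytes secrete MUPs into the blood, from which they pass into the urine. There they bind small volatile pheromones in a barrel-shaped pocket and release them slowly from scent marks, and Mup20, also called darcin, is itself a protein pheromone of males. Transcription of the main liver Mup genes is strongly male-biased and is driven by the pulses of growth hormone that act through the receptor and STAT5b. The genes arose by repeated duplication and lie side by side on chromosome 4.

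In the GRCm38 annotation the 10 members lay on the minus strand of chr4:60066469-62087342, a stretch of 2.021 Mb, in the order Mup7, Mup2, Mup9, Mup1, Mup10, Mup11, Mup17, Mup18, Mup20 and Mup3. Their coding sequences have 543 to 555 bases. Mup1, Mup2, Mup7, Mup9, Mup10, Mup11, Mup17 and Mup18 were 98.4% to 99.8% identical to each other over the coding sequence. Mup20 was 90.1% to 91.4% identical to those 8, Mup3 82.4% to 83.9%, and Mup3 and Mup20 shared 87.1% with each other. A stretch of 60 coding bases, positions 244 to 303 of the Mup17 coding sequence, is printed here because it tells Mup3 and Mup20 apart from the rest while the near-identical members all but coincide. Capitals mark the bases that differ from the commonest base among the 10 members. Mup7, Mup9, Mup10 and Mup18 have the letters printed for Mup17, and Mup1 and Mup2 have those printed for Mup11.
Mup17: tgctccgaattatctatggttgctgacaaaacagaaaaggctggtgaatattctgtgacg
Mup11: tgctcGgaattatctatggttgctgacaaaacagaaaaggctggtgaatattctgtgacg
Mup20: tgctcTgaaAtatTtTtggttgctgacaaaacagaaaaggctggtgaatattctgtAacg
Mup3: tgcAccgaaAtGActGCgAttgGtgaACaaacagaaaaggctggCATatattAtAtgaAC

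The counts come from reads near the 3′ end of each transcript, so 1 molecule gives at most 1 count whatever the length of its gene, and levels of different members can be set side by side without a length scale. Such comparisons are limited by how much of the 3′ end is unique. Of the windows of 90 bases in the last 500 bases of the transcript, 100% were unique to Mup3, 90.3% to Mup20, 65.2% to Mup17, 31.1% to Mup11, 25.3% to Mup9, 15.8% to Mup18 and 0.487% to Mup7. No window was unique to Mup1, Mup2 or Mup10, and up to 17 genes of the cluster shared a window. Values of Mup3 and Mup20 can therefore be read singly, those of Mup17 in large part, and the counts of the other 7 members are uncertain. Reads that map to several genes are not counted, so the order of member levels may also depend on how much of each is unique. The same limit holds for the family sum, its share of all UMIs and the share of each member in it. Yet Mup1 and Mup10, with no unique window, had 54457 to 68706 and 15987 to 22071 UMIs in the 0 h sections. The window measure does not account for these counts, and where such reads come from was not tested.

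RefSeq gives a promoter window of 300 bases (GRCm38.p6, from 250 bases before to 50 after the start) for 8 of the 10 members, and not for Mup1 and Mup20. The part next to the start is printed for Mup17 and Mup18, which were higher at the pericentral side at 0 h, and for Mup3, which was higher at the periportal side, so that their start regions can be compared. The stretches run 5′ to 3′ on the minus strand and end at the letters TATATAAG, set in capitals, a form of the TATA box at which the transcription machinery assembles. They lie at chr4:61595850-61595977 (Mup17), chr4:61674115-61674242 (Mup18) and chr4:62087321-62087448 (Mup3).
Mup17: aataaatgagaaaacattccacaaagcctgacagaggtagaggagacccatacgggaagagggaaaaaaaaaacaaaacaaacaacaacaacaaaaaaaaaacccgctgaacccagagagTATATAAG
Mup18: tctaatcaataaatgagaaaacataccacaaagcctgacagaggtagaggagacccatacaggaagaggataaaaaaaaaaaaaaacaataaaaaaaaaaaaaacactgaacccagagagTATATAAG
Mup3: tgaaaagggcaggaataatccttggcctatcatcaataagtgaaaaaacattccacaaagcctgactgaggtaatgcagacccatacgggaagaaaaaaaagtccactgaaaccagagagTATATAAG
The element TATATAAG, searched on both strands, was in the window of 7 of the 8 members, all but Mup7, against 1.0% of 32851 mouse promoter windows. The STAT5 motif TTCNNNGAA matched 0 of the 8 windows and 8.30% of all and the C/EBP motif TTGCNNAA 0 of 8 and 10.8% of all. With no gaps allowed, the windows of Mup11 and Mup17 were 94.9% identical over 277 bases. RefSeq starts can differ from those of the Ensembl annotation used for counting: the printed TATATAAG letters of Mup17, Mup18 and Mup3 and the Mup2 window lie within the Ensembl genes. A match describes these letters only, and a window without one says nothing about the factor.

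Each section held 1490 to 3466 spots after filtering and 31292663 to 67045372 UMIs, with medians of 15169 to 29950 UMIs per spot. All 7 hepatocyte markers of the study (such as Alb, Ttr and Hnf4a) were detected in every group. Their sum was 119154 to 124620 counts per 1000000 UMIs (CPM) at 0 h and 85325 to 113945 CPM after injury. The summed mesenchymal markers (7 genes, such as Col1a1) were at 249.7 to 286.3 CPM at 0 h and 673.7 to 1469 CPM at 48 h. The summed mononuclear phagocyte markers (4 genes) were at 409.1 to 434.5 CPM at 0 h and 721.8 to 1327 CPM at 48 h, and the neutrophil markers (5 genes) at 1.98 to 7.88 CPM at 0 h and 20.9 to 135.7 CPM after injury. The cholangiocyte markers (4 genes) summed to 235.5 to 293.1 CPM at 0 h and to 325.1 to 1141 CPM after injury, where Krt8 was the 1 of them called higher. Endothelial markers (7 genes) lay between 201.7 and 324.6 CPM in all sections. The part of these other cell types in the values that follow was not tested.

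At 0 h the 10 members were among the main products of the liver, and in every injured section their summed share was lower. They made up 4.95%, 4.25% and 6.29% of all UMIs in the 0 h replicates 2, 3 and 4. Of the injured sections, the 24 h pair had 1.09% and 1.22%, the 36 h pair 1.56% and 0.657%, and the 48 h sections 0.724%, 1.15%, 1.01% and 1.80%. Every injured section lay below every uninjured one, while the injured groups overlapped each other. After trimmed mean of M values (TMM) scaling the sum was 65079 ± 14126 CPM (SD, n = 3) at 0 h, and the injured groups stood at 17.8% ± 1.80, 15.7% ± 8.57 and 15.7% ± 6.22 of that mean at 24, 36 and 48 h (SD between sections, n = 2, 2 and 4). With total-count scaling the corresponding values were 22.3%, 21.5% and 22.7%.

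In sums over spots, fewer hepatocytes and less Mup RNA per hepatocyte cannot be told apart, so the sum was also set against 5 other hepatocyte products, Alb, Ttr, Trf, Hnf4a and Apoa1. Their share of UMIs was 9.25% to 9.45% before injury and 8.19% to 11.03% after it. Per 1000 UMIs of those 5 genes, the members gave 523.5, 458.6 and 679.9 UMIs in the uninjured sections. The injured sections gave 132.7 and 138.0 (24 h), 168.3 and 60.8 (36 h), and 70.4, 103.9, 112.4 and 188.1 (48 h). On this measure too the injured sections did not overlap the uninjured ones, at 24.4% ± 0.673, 20.7% ± 13.7 and 21.4% ± 8.97 of the 0 h mean. The 36 h pair was the most unlike within a group of 2, and 48 h D was the highest injured section. No test was made on the sum.

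All 10 members were lower after injury, but by unequal amounts. Each member had a lower value in every injured section than in every uninjured section. The edgeR quasi-likelihood test, adjusted over 14821 genes, called 8 of 10 members lower at 24 h, where 18.6% of all genes were called lower. It called 9 of 10 at 36 h against a background of 12.4%, and 10 of 10 at 48 h against 20.9%. The count of 9 became 5 without 36 h B. No member was called higher, against 23.1%, 16.8% and 23.3% of all genes. The members' median log2 fold change was -2.67, -4.22 and -4.07 in time order, beside all-gene medians of 0.05, 0.05 and 0.01. With total-count scaling the all-gene medians moved to 0.37, 0.49 and 0.54, and the numbers of members called stayed at 8, 9 and 10. These comparisons share the 0 h sections.

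Mup3 and Mup20, the members with the clearest reads, kept the largest shares of their starting levels at 36 h and 48 h, whereas at 24 h the largest was that of Mup18. Mup3 read 21190, 21714 and 22086 CPM in the uninjured sections, 4846 and 4384 in the 24 h pair, 7027 and 3148 in the 36 h pair, and 1866, 2817, 2112 and 5156 in the 48 h sections (replicates in the order of their numbers or letters, as in all that follows). The uninjured sections were close together, and all injured sections were far below them. The log2 fold change of Mup3 against 0 h was -2.23 ± 0.46 (SE), -2.09 ± 0.45 and -2.86 ± 0.36 in time order, with adjusted p of 0.0035, 0.00842 and 0.000224 in the edgeR test. For Mup20, the darcin gene, the uninjured sections held 12950, 14017 and 21121 CPM, those of 24 h 3047 and 3397, those of 36 h 5606 and 2087, and those of 48 h 3130, 5328, 4470 and 7503. It was the only member whose mean was higher at 48 h than at 24 h, at 31.9% against 20.1% of the uninjured mean, a difference that was not called (log2 fold change 0.66 ± 0.42, adjusted p = 0.238). Against 0 h the log2 fold change of Mup20 was -2.31 ± 0.47, -2.06 ± 0.46 and -1.65 ± 0.36 (adjusted p of 0.00318, 0.00939 and 0.00421). The calls of both genes at 36 h were lost without 36 h B, the lower section of that pair, with the direction kept (adjusted p = 0.0659 for Mup3 and 0.0561 for Mup20).

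Mup7 and Mup11 are the abundant near-identical members. Mup7 read 15910, 7201 and 16449 CPM in the uninjured sections, 1574 and 2847 in the 24 h pair, 992 and 864 in the 36 h pair, and 823, 1424, 1377 and 2063 in the 48 h sections. Its uninjured sections already spread over a wide range, with replicate 3 closest to the injured ones. For Mup11 the uninjured sections held 7818, 6306 and 13177 CPM, those of 24 h 764 and 1262, those of 36 h 294 and 76.9, and those of 48 h 498, 443, 682 and 951. The 36 h sections were the lowest for Mup11, at 2.04% of the uninjured mean, with 11.1% in the 24 h mean and 7.07% in the 48 h mean. For Mup7 the means in time order were 16.8%, 7.04% and 10.8%. By 48 h the log2 fold change was -3.21 ± 0.37 for Mup7 (adjusted p = 0.00013) and -3.82 ± 0.48 for Mup11 (adjusted p = 0.000233). Both genes were also called lower at the 2 earlier times, with adjusted p of 0.00179 and 0.000885 for Mup7 and of 0.00278 and 0.000834 for Mup11.

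Mup17 and Mup1 were among the members whose counted level fell by the largest fraction, and the counts of Mup1, which has no unique window, are uncertain. Mup17 read 2459, 1626 and 4599 CPM in the uninjured sections, 268 and 286 in the 24 h pair, 67.8 and 39.3 in the 36 h pair, and 11.2, 9.88, 15.4 and 52.9 in the 48 h sections. Its groups did not overlap apart from 48 h D, which lay between the 36 h sections, and the means were 9.57%, 1.85% and 0.771% of the uninjured mean in time order. For Mup1 the uninjured sections held 1346, 1002 and 1941 CPM, those of 24 h 103 and 112, those of 36 h 35.4 and 8.28, and those of 48 h 6.15, 13.0, 7.23 and 53.0. In both genes 48 h D was the highest of the 4 sections of its time. At 48 h the log2 fold change was -7.02 ± 0.72 for Mup17 (adjusted p = 9.27e-05) and -6.17 ± 0.87 for Mup1 (adjusted p = 0.000475). The earliest values were -3.38 ± 0.81 for Mup17 (adjusted p = 0.00841) and -3.73 ± 1.05 for Mup1 (adjusted p = 0.0174), and the 24 h calls of both genes were lost when either 24 h section was left out (adjusted p = 0.0614 to 0.103). That of Mup1 was also lost with no filter on low counts (adjusted p = 0.0533). The 36 h calls had adjusted p of 0.0025 for Mup17 and 0.00591 for Mup1, and that of Mup1 was lost without 36 h B (adjusted p = 0.0582).

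Mup9, Mup10, Mup18 and Mup2 were the rarer members. Mup9 read 326, 191 and 403 CPM in the uninjured sections, 53.7 and 43.6 in the 24 h pair, 20.6 and 10.2 in the 36 h pair, and 5.36, 6.92, 4.15 and 9.87 in the 48 h sections. Its 4 groups did not overlap, each later one lying lower, and it was called lower at all 3 times (adjusted p of 0.0013, 0.000566 and 1.89e-05). For Mup10 the uninjured sections held 486, 318 and 452 CPM, those of 24 h 76.3 and 54.3, those of 36 h 91.7 and 16.7, and those of 48 h 4.69, 12.7, 7.72 and 58.7. The 36 h pair and the 48 h sections of Mup10 were widely spread. Mup10 was called lower at 48 h (log2 fold change -4.32 ± 0.89, adjusted p = 0.0036), whereas the values of 24 h (-2.68 ± 1.09, adjusted p = 0.0742) and 36 h (-2.95 ± 1.11, adjusted p = 0.0709) were not called. Without 48 h D both of these earlier differences passed the test (adjusted p = 0.0127 and 0.0144). Mup18 read 43.7, 25.9 and 78.8 CPM in the uninjured sections, 14.1 and 20.2 in the 24 h pair, 3.13 and 2.51 in the 36 h pair, and 1.01, 1.85, 4.33 and 13.3 in the 48 h sections. Its 24 h mean was 34.7% of the uninjured mean, a difference that was not called (-1.53 ± 0.89, adjusted p = 0.196), and it was called lower at 36 h (-4.13 ± 1.05, adjusted p = 0.0176) and 48 h (-3.26 ± 0.74, adjusted p = 0.00595). The 36 h call of Mup18 was lost without either section of that time (adjusted p = 0.0865 and 0.134).

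Mup2 was close to the limit of detection even in the uninjured liver. It had 40, 47 and 22 UMIs in the uninjured sections, 1 and 3 in the 24 h pair, 0 and 0 in the 36 h pair, and 0, 1, 0 and 2 in the 48 h sections. It was called lower against 0 h throughout (adjusted p of 0.00243, 0.00189 and 0.00011). Summed over sections and divided by the scaled totals, it was 15.7-fold lower at 24 h (95% interval 6.13 to 57.6) and 69.3-fold lower at 48 h (95% interval 23.7 to 336). At 36 h, with 0 UMIs, it was at least 18.7-fold lower when the floor is taken as 3 UMIs over the group, and the 95% interval starts at 15.2-fold. These intervals cover counting error only. Since no 3′ window is unique to Mup2, its few counts may belong to other members, and its zone values are not given.

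**Figure D1:**
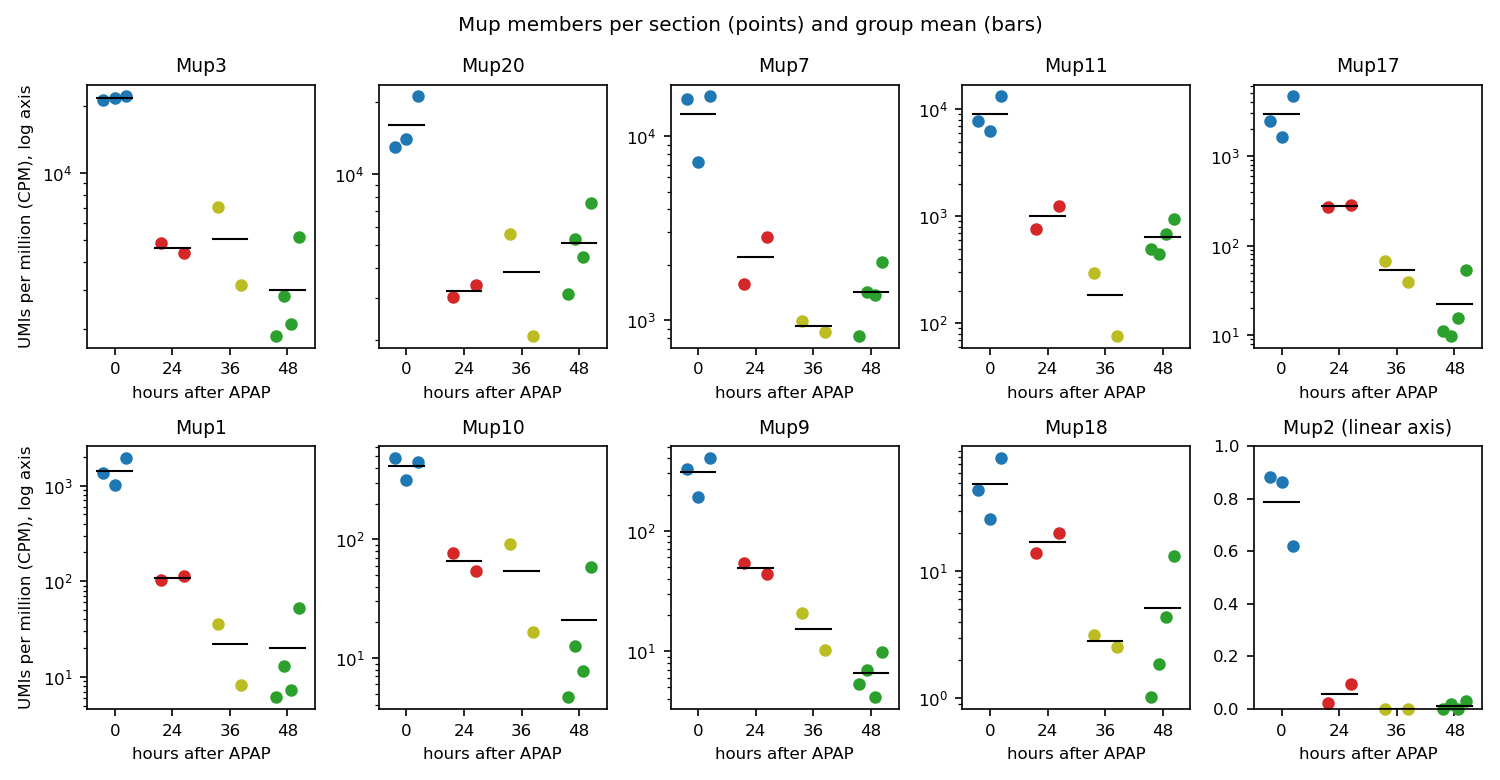
Level of each member in every section by hours after APAP, in UMIs per 1000000 (CPM, log axis except for Mup2, whose axis is linear); points are sections and bars are group means. All injured points lie below all 0 h points in each of the 10 panels, and from the 24 h to the 48 h mean Mup20 goes from 3222 to 5108 CPM and Mup17 from 277 to 22.3 CPM.

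In the uninjured liver the order of the member levels in CPM was Mup3, Mup20, Mup7, Mup11, Mup17, Mup1, Mup10, Mup9, Mup18 and Mup2. Of these neighbours, Mup20 and Mup7, Mup7 and Mup11, Mup17 and Mup1, and Mup10 and Mup9 overlapped between sections, and the other neighbours did not. The order was the same at 24 h. At 36 h Mup10 stood above Mup17, with overlapping sections. At 48 h Mup20 stood above Mup3 in the means, 5108 against 2988 CPM, with overlapping ranges, and in each of the 4 sections Mup20 had the higher value.

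Between injured time points fewer members differed. From 24 h to 36 h, Mup11 (log2 fold change -2.45 ± 0.62, adjusted p = 0.029) and Mup9 (-1.66 ± 0.46, adjusted p = 0.0383) were called lower, 2 of 10 where 8.58% of all genes were called lower. Neither call was kept without 24 h A, without 24 h B or without 36 h B, 1 was kept without 0 h replicate 2 or without 48 h B, and without 48 h D the count was 5. From 24 h to 48 h, Mup17 (-3.63 ± 0.65, adjusted p = 0.00309), Mup9 (-2.89 ± 0.38, adjusted p = 0.000714) and Mup1 (-2.44 ± 0.81, adjusted p = 0.043) were called lower, 3 of 10 against a background of 17.8%. Without 48 h D, the section with the highest Mup17, Mup9 and Mup1 at that time, the count was 6. The call of Mup1 depended on single sections and was lost in 9 of the fits that left 1 section out (adjusted p = 0.0521 to 0.135). From 36 h to 48 h edgeR called 0 of 10 members, with 2 of 10 (Mup9 and Mup11) at an unadjusted p under 0.05, and DESeq2 called 2. The background of calls either way on this contrast was 3.05%. Mup11 had a log2 fold change of 1.79 ± 0.56 there (adjusted p = 0.111).

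The share of Mup20 in the family was higher in each later group, and that of Mup3 was highest at 36 h. Mup20 took 20.7%, 26.7% and 26.3% of the members' UMIs in the uninjured sections, 28.4% and 27.4% in the 24 h pair, 39.7% and 33.4% in the 36 h pair, and 49.3%, 53.0%, 51.5% and 47.3% in the 48 h sections. The 4 groups did not overlap in this share, each later one lying higher. Mup3 took 33.9%, 41.4% and 27.5% before injury, 45.1% and 35.3% at 24 h, 49.7% and 50.3% at 36 h, and 29.4%, 28.0%, 24.3% and 32.5% at 48 h. Its 24 h and 48 h shares overlapped with those of the uninjured liver, and its 36 h shares did not. The sum of the other 8 members was 27386 ± 10251 CPM (SD, n = 3) at 0 h, and the injured means were 13.7%, 4.60% and 7.81% of that. The sum of Mup3 and Mup20 was 37693 ± 4842 CPM (SD, n = 3) at 0 h, and the injured means were 20.8%, 23.7% and 21.5%. Shares of a sum are tied to each other, and no test was made on them.

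**Figure D2:**
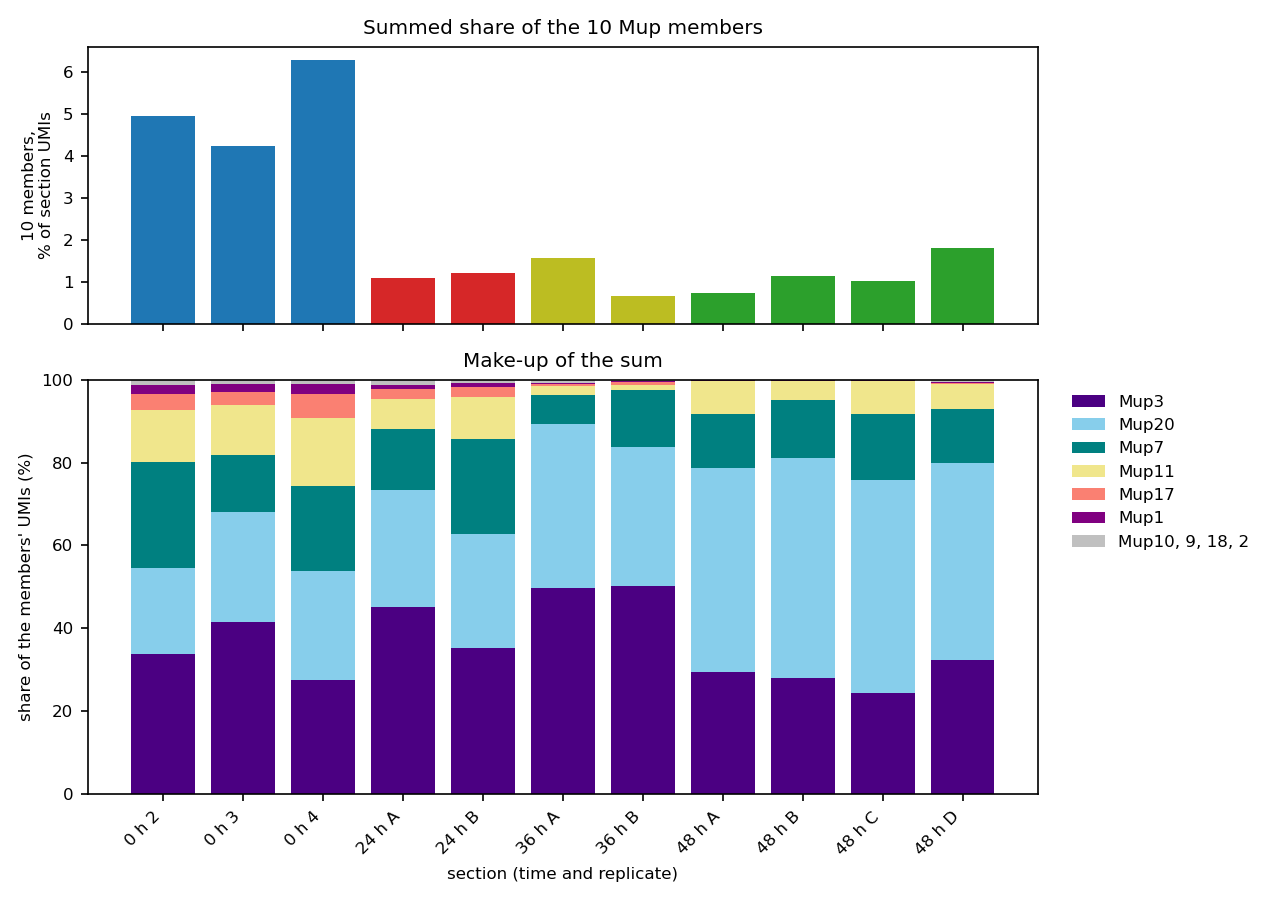
Top, the 10 members as a percentage of all UMIs of each section; bottom, the share of each member in the members' UMIs, with the 4 rarest members joined. The 0 h bars stand at 4.25% to 6.29% and the injured bars at 0.657% to 1.80%, and the Mup20 band takes 20.7% to 26.7% of the sum at 0 h and 47.3% to 53.0% at 48 h.

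Within the uninjured lobule the summed family was nearly level as a share of all UMIs, but its members were not. Blood enters the liver lobule at the portal tracts and leaves at the central vein, and hepatocytes along this path express different genes, a pattern called zonation. Spots were ordered by scores of the study's central and portal gene lists, which were drawn on these tissues and from which Mup11 and Mup20 were taken out, so that no member set the order. Over 5 equal classes from the periportal to the pericentral end, the sum was 4.74% to 5.13% of UMIs in replicate 2, 4.05% to 4.45% in replicate 3 and 6.12% to 6.63% in replicate 4. Set against the 5 hepatocyte reference genes, which were lower at the pericentral side, the sum was higher there in 3 of 3 sections, at 540.3 to 819 against 425 to 614 UMIs per 1000 in the outer classes of 3. Over the same 5 classes the ratio of Mup20 to Mup11 counts ran from 4.70 to 0.658 in replicate 2, from 6.56 to 0.819 in replicate 3 and from 3.61 to 0.687 in replicate 4. In all 3 sections Mup20 was thus the more abundant of the pair at the portal end and Mup11 at the central end.

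For tests the spots of each section were cut into 3 equal classes along the same order, and the outer classes were compared. Of the 10 members, 5 were called higher in the pericentral than in the periportal class at 0 h, where 11.1% of 12305 genes were called higher, and 2 were called lower, where 11.8% were. Mup17 read 3298, 2339 and 6686 CPM in the pericentral class and 901, 578 and 1559 CPM in the periportal class (log2 fold change 2.0 ± 0.04, adjusted p = 1.46e-12). Mup9 read 423, 258 and 563 CPM and 132, 77.0 and 154 CPM (1.77 ± 0.03, adjusted p = 9.97e-22). Mup18 read 54.6, 34.4 and 100.4 CPM and 20.4, 10.5 and 34.9 CPM (1.53 ± 0.05, adjusted p = 1.77e-16). All 3 genes were higher at the pericentral side in each section. The differences of Mup1 (0.34 ± 0.07, adjusted p = 0.046) and Mup10 (0.22 ± 0.03, adjusted p = 3.43e-06) were small by comparison, although both were higher in 3 of 3 sections.

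Mup20 ran the other way, at 6729, 7670 and 11020 CPM in the pericentral class and 14543, 15262 and 22823 CPM in the periportal class (-1.05 ± 0.02, adjusted p = 2.09e-20). Mup3 read 13976, 14956 and 15224 CPM and 19608, 19461 and 19334 CPM (-0.40 ± 0.02, adjusted p = 4.56e-12). Both genes thus ran opposite to Mup17 in each section. Mup11, at 9109, 7935 and 13788 CPM in the pericentral and 3623, 2690 and 7312 CPM in the periportal class, was higher at the pericentral side in 3 of 3 sections but missed the threshold (1.27 ± 0.18, adjusted p = 0.0598), as did Mup7 (0.30 ± 0.08, adjusted p = 0.109). With total-count scaling both were called, and with the outer classes of 5 or without replicate 4 Mup11 was called. Mup7 was called when any 1 of the 3 sections was left out (adjusted p of at most 3.15e-07). The p-values of this fit of 3 sections thus moved widely with the sections used. The summed endothelial markers took 0.0217% to 0.0246% of UMIs in the pericentral class and 0.0168% to 0.0201% in the periportal class. The 5 hepatocyte reference genes took 7.88% to 8.06% and 10.2% to 10.5%, and the part of either in these differences was not tested.

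**Figure D3:**
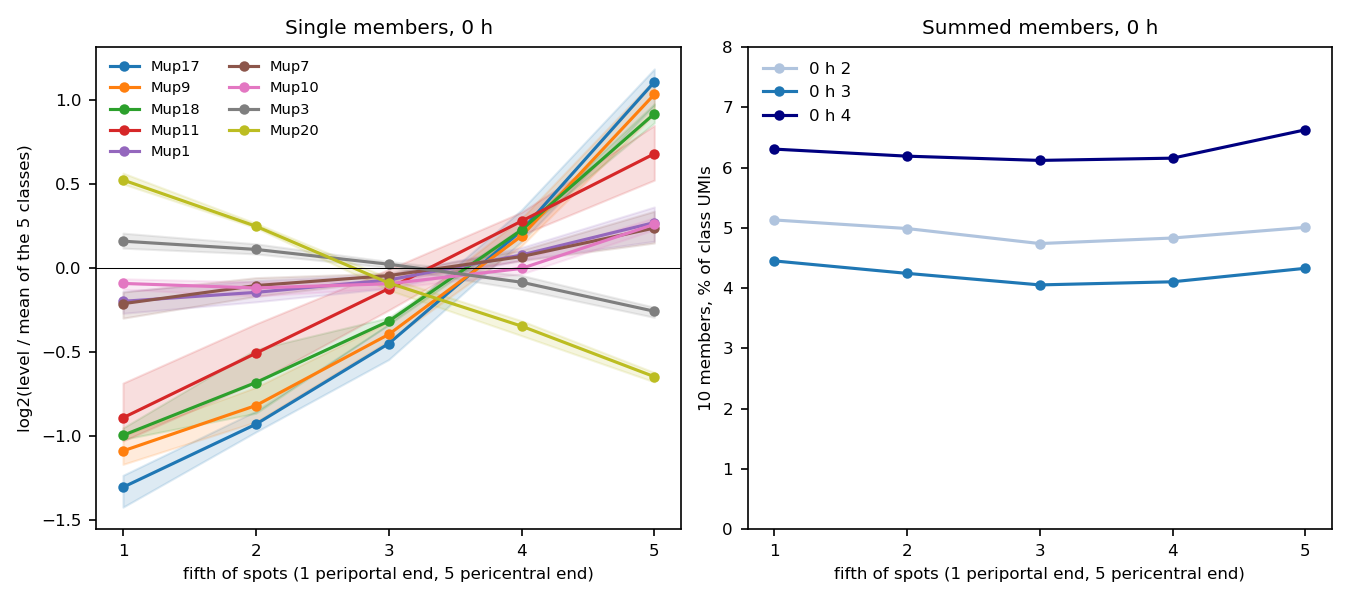
Zonation at 0 h over 5 equal classes of spots from the periportal end (1) to the pericentral end (5). Left, log2 of the level of 9 members over their mean across the classes (lines are means of 3 sections and bands their range; Mup2 is left out); right, the 10 members as a percentage of UMIs in each section, which stays between 4.05% and 6.63% while at left Mup20 runs down and Mup17 up.

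After injury the portal list alone was used to order the spots, since APAP kills the hepatocytes on which central expression rests, and the portal-rich class of 3 equal classes was set against the portal-poor class of the same section. Before injury this order gave 7 calls, Mup20 and Mup3 higher (5.08% of 14010 genes were called higher) and Mup7, Mup9, Mup11, Mup17 and Mup18 lower (5.4% called lower). At 24 h Mup20, Mup3 and Mup7 were higher (background 15.8%), and Mup1 and Mup9 lower (background 13.6%). The count of 5 at 24 h became 3 without 24 h A. At 36 h Mup3, Mup7, Mup10 and Mup20 were higher (background 14.5%) and none was lower (background 13%). At 48 h 6 members were higher (background 30.7%) and none was lower (background 34.7%), so at that time most genes passed one way or the other. The portal-rich class at 48 h also had more hepatocyte reference RNA (10.3% to 12.3% of UMIs against 7.13% to 9.16%). It had less mesenchymal marker RNA (0.0374% to 0.0813% against 0.131% to 0.297%) and less phagocyte marker RNA (0.0371% to 0.0688% against 0.148% to 0.284%). The part of these in the zone differences was not tested.

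Mup20 and Mup3 stayed on the portal side at every time. Mup20 was higher in the portal-rich class in 11 of 11 sections, with log2 fold changes of 0.84, 1.04, 0.75 and 1.25 in time order from 0 h to 48 h (SE 0.05 to 0.07, all adjusted p of at most 1.22e-08). Among the 48 h sections it read 4495, 7852, 6785 and 10470 CPM in the portal-rich class and 1921, 3205, 2540 and 5027 CPM in the portal-poor class. Mup3 had log2 fold changes of 0.33 ± 0.05, 0.75 ± 0.07, 0.74 ± 0.07 and 1.29 ± 0.05 in the same order. In Mup3 the zone difference itself was larger than before injury at all 3 times, by 0.42, 0.42 and 0.97 (adjusted p of 0.000897, 0.000779 and 2e-11), and with total-count scaling the earlier 2 missed the threshold. With textbook zone lists in place of the study's, the 24 h value of Mup3 was 0.23 and not called (adjusted p = 0.0828). In Mup20 the zone difference was larger by 0.40 at 48 h (adjusted p = 7.68e-05), which became 0.06 and was not called with total-count scaling. For the earlier times the values of Mup20 were 0.20 and -0.10 (adjusted p = 0.14 and 0.52). Under total-count scaling these were -0.02 and -0.31, of which the last was called.

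With TMM scaling, the members that were lower in the portal-rich class before injury were not called lower there at 36 h or 48 h. With total-count scaling Mup11 was called lower at 36 h (-0.84, adjusted p = 0.0464). That scaling also gave 48 h values of -0.69 for Mup17 and -0.11 for Mup9, neither called (adjusted p = 0.0639 and 0.474). Mup17 had log2 fold changes of -1.75 ± 0.26 before injury (adjusted p = 0.00452), then -0.67 ± 0.33, 0.45 ± 0.38 and -0.31 ± 0.30, and the last 3 did not pass the test (adjusted p of 0.177, 0.458 and 0.405). In CPM, Mup17 in the portal-rich and portal-poor classes was 1257 and 3956 in uninjured replicate 2, 823 and 2815 in replicate 3, and 2218 and 7889 in replicate 4. In the 48 h sections A to D the pairs were 11.4 and 11.6, 14.5 and 6.86, 13.3 and 18.03, and 37.5 and 75.5. These sections were split, with A almost level, B higher in the portal-rich class, and C and D higher in the portal-poor class.

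Mup9 had values of -1.58 ± 0.09 before injury (adjusted p = 4.63e-08), -0.62 ± 0.14 at 24 h (adjusted p = 0.00417), 0.40 ± 0.19 at 36 h and 0.27 ± 0.15 at 48 h (adjusted p = 0.153 and 0.127), and without 24 h A the 24 h value of Mup9 was -0.27 and not called. Mup18 had -1.39 ± 0.08 (adjusted p = 7.32e-11), -0.09 ± 0.14, 0.38 ± 0.33 and 0.76 ± 0.14 in time order, of which the last was called (adjusted p = 9.67e-05). With total-count scaling the 24 h value of Mup18 was -0.35 and called lower (adjusted p = 0.0486). Mup11 had -1.07 ± 0.21 (adjusted p = 0.0174), -0.41 ± 0.26, -0.58 ± 0.29 and 0.40 ± 0.18, the last 3 of them not called (adjusted p of 0.306, 0.191 and 0.0959), and its call before injury was lost without replicate 2 or replicate 3 (adjusted p = 0.108 and 0.122). Mup7 had -0.24 ± 0.07 (adjusted p = 0.0346), 0.33 ± 0.09, 0.51 ± 0.09 and 0.96 ± 0.06, all called (the last 3 with adjusted p of 0.00715, 0.000174 and 3.45e-11). The 24 h value of Mup7 was 0.07 and not called with total-count scaling, and its value was 0.13 and not called without 24 h B. Its call before injury was lost without any 1 of the uninjured sections. Mup10 had -0.16, 0.26, 0.51 and 0.70, of which the last 2 were called (adjusted p of 0.387, 0.181, 0.0253 and 0.000254). The 36 h call of Mup10 was lost with total-count scaling (0.26, adjusted p = 0.247) and without 36 h A, 36 h B, 0 h replicate 4 or 48 h C (adjusted p = 0.0506 to 0.181). Mup1 had -0.25, -0.55, -0.02 and 0.40, called lower at 24 h and higher at 48 h (adjusted p of 0.153, 0.00797, 0.952 and 0.0124). Under total-count scaling the 48 h value of Mup1 was 0.03 and its call was lost, as it was without 48 h B or 48 h D. The 24 h call of Mup1 was lost without 24 h A (adjusted p = 0.165) and with textbook zone lists (-0.26, adjusted p = 0.167).

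The change of the zone difference against 0 h was then tested directly. It called 4 members at 24 h (Mup3, Mup7, Mup9 and Mup18), 6 at 36 h (those 4 with Mup10 and Mup17) and 9 at 48 h (all but Mup2), every one towards the portal side. The share of all genes called in that direction was 10.5%, 10.8% and 23.5%. The count of 6 at 36 h became 3 without 36 h A. At 48 h the changes were 2.15 ± 0.17 for Mup18, 1.85 ± 0.18 for Mup9, 1.47 ± 0.28 for Mup11 and 1.44 ± 0.40 for Mup17. These 4 were also called with total-count scaling, at 1.85, 1.51, 1.13 and 1.10, whereas the calls of Mup1 and Mup20 were lost (adjusted p = 0.123 and 0.458). The 48 h call of Mup17 was lost without 0 h replicate 3, 0 h replicate 4 or 48 h A (adjusted p = 0.0515 to 0.0569). The 36 h calls of Mup17 and Mup10 were lost without either 36 h section, and that of Mup3 without 36 h A. The 24 h call of Mup7 was lost without 24 h B. For Mup10 the 36 h call was also lost without 0 h replicate 2, 3 or 4 (adjusted p = 0.056 to 0.0756) and with total-count scaling (0.46, adjusted p = 0.119). That scaling moved the all-gene median of the portal-rich against the portal-poor class to -0.24, -0.26 and -0.42 at the injured times. The 5 hepatocyte reference genes were also called towards the portal side, 4 of 5 at 24 h and at 36 h and 5 of 5 at 48 h, with a median change of 0.41 at 48 h, and their part in the members' values was not tested.

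**Figure D4:**
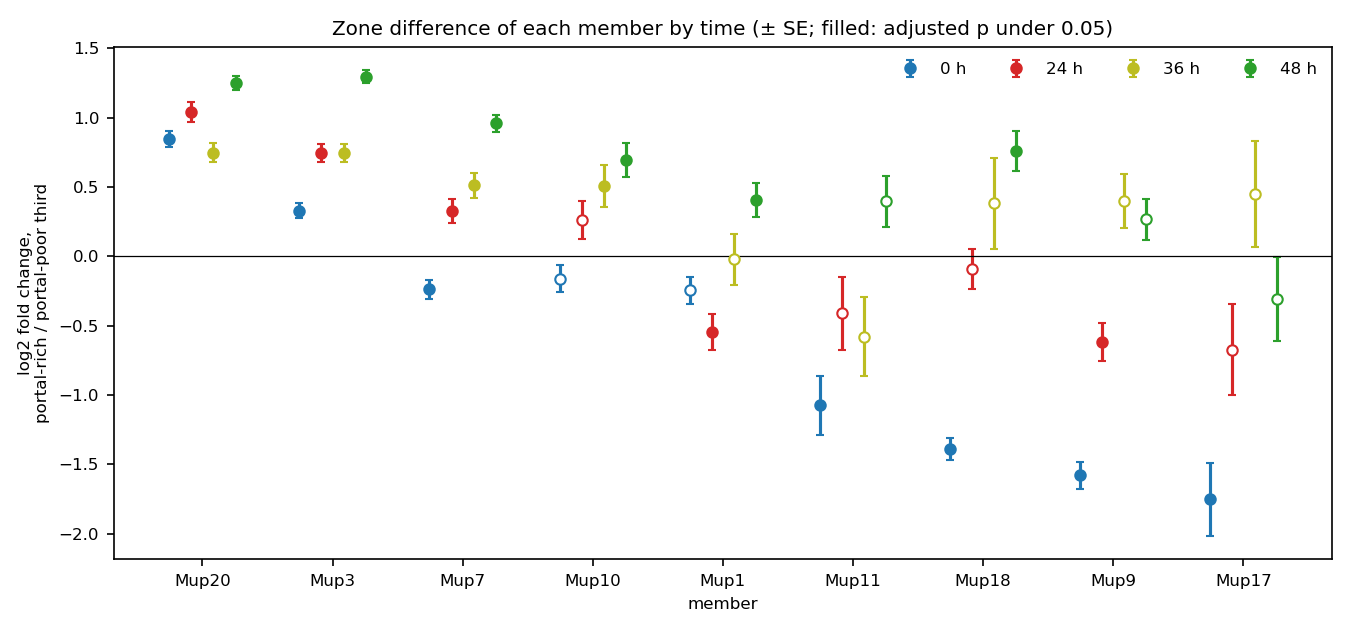
Log2 fold change of 9 members between the portal-rich and the portal-poor class of spots at each time point (points with SE bars from the edgeR fit; filled points passed at adjusted p under 0.05; Mup2 is left out). Mup20 and Mup3 stay above 0 at all 4 times, while Mup18, Mup9 and Mup17 start at -1.39 to -1.75 at 0 h and reach -0.31 to 0.76 at 48 h.

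The lower level after injury was also present within the portal-rich class itself. Against the same class at 0 h, 7 of the 9 members tested were called lower at 24 h (background 14.3%), 7 at 36 h (background 6.56%) and 8 at 48 h (background 8.9%). None was called higher, and Mup2 was not tested there. Mup20 read 17241, 17598 and 26544 CPM in this class in the uninjured sections and 4495, 7852, 6785 and 10470 CPM in the 48 h sections (log2 fold change -1.45 ± 0.37, adjusted p = 0.0228). Mup3 read 24097, 23851 and 23530 CPM and then 2680, 4132, 3165 and 7554 CPM (-2.43 ± 0.38, adjusted p = 0.00304). For neither gene did the groups overlap. Mup17 and Mup1 had the log2 fold changes -6.20 ± 0.56 (adjusted p = 0.000425) and -5.86 ± 0.96 (adjusted p = 0.00572) in this class at 48 h. Mup18 was not called at any time in this class (adjusted p of 0.584, 0.108 and 0.0871). With 2 sections a group these counts depended on single sections. At 24 h the calls of Mup1, Mup3, Mup17 and Mup20 were lost when either 24 h section was left out. Those of Mup7 and Mup11 were lost without 24 h A. At 36 h the calls of Mup1, Mup3, Mup7, Mup17 and Mup20 were lost without 36 h B. The count of 7 at 36 h became 4 without either uninjured replicate 2 or replicate 4. The call of Mup20 at 48 h was lost without uninjured replicate 3, without uninjured replicate 4 and without 48 h C.

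Across single spots, each thinned to 2000 UMIs, the family was lower in the median spot of every injured section. The median spot held 98, 83 and 124 member UMIs in the uninjured sections, 20 and 23 in the 24 h pair, 30 and 13 in the 36 h pair, and 14, 22, 19 and 35 in the 48 h sections. The SD over spots was 14.7 UMIs in uninjured replicate 2, where counting alone would give 9.92, and 9.71 UMIs in 48 h C, where counting alone would give 4.49. The middle 90% of spots ran from 74 to 123 UMIs in the former section and from 7 to 38 UMIs in the latter. Between neighbouring spots the family counts had a Pearson r of 0.30 to 0.38 before injury, 0.27 to 0.29 in the 24 h pair, 0.36 to 0.41 in the 36 h pair and 0.39 to 0.51 among the 48 h sections, over 4295 to 9942 pairs of spots a section. With the 5 hepatocyte reference genes the r across spots was 0.12 to 0.26 before injury and 0.23 to 0.69 after it (1490 to 3461 spots). Spots of a section share a library and neighbouring tissue, so these values are descriptions. At this depth Mup20 was seen in 97.1% to 100% of spots in all sections. Mup17 was seen in 79.1% to 96.6% of spots before injury and 2.62% to 11.4% at 48 h, and Mup11 in 99.6% to 100% and 61.7% to 84.0%. Members were also counted at barcodes off the tissue, at 0.752% to 2.15% of UMIs there in the injured sections. The part of such stray RNA in these detection rates and in the zone values was not tested.

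**Figure D5:**
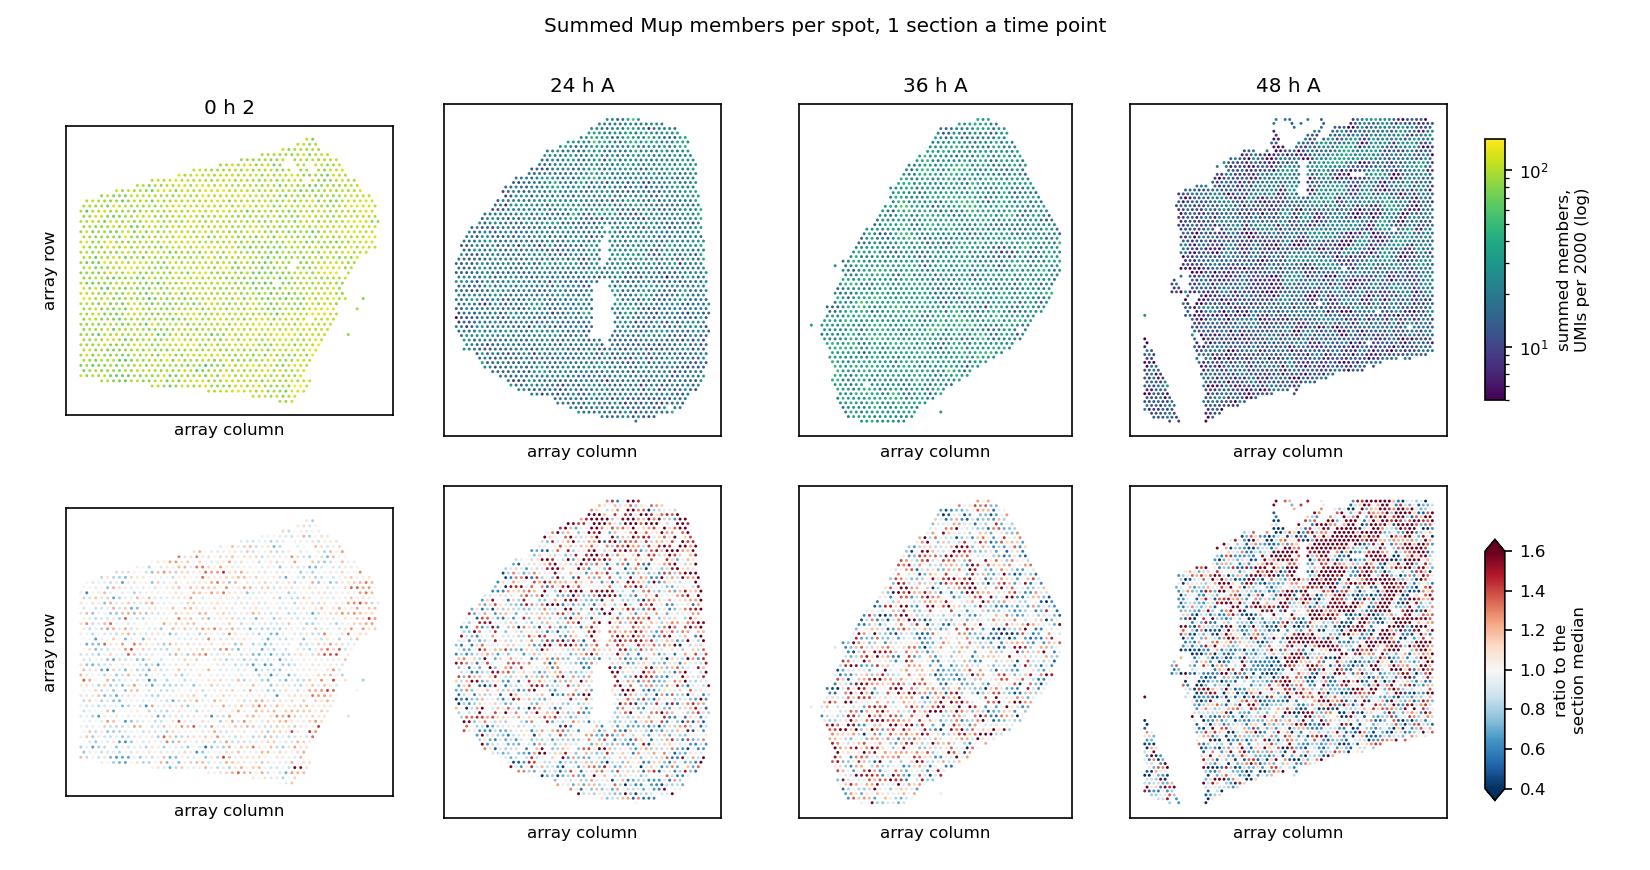
Summed members per spot in 1 section of each time point (0 h replicate 2 and section A of each injured time), by array position. Top, member UMIs per 2000 UMIs of the spot on a log colour scale; bottom, the ratio to the median of the same section, which was 98, 20, 30 and 14 UMIs. The 0 h map is pale, with spots close to their median, and the 48 h map has patches on either side of it.

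Of the other 11 Mup genes, 8 were called lower at 24 h, 8 at 36 h and 10 at 48 h, where 18.6%, 12.4% and 20.9% of all genes were, and none was called higher. Mup16 read 650, 419 and 991 CPM in the uninjured sections and 33.3, 38.3, 37.8 and 69.0 CPM in the 48 h sections (log2 fold change -3.94 ± 0.37, adjusted p = 5e-05). Mup14 read 385, 238 and 355 CPM and then 12.1, 22.7, 17.7 and 47.5 CPM (-3.70 ± 0.44, adjusted p = 0.00017). Mup8 and Mup15, both under 9 CPM in every section, had log2 fold changes of -4.92 and -3.81 at 48 h (adjusted p = 2.3e-05 and 0.000368). Mup21 was the 1 gene of these that missed the threshold in the last comparison, with a log2 fold change of -1.89 ± 0.83 and an adjusted p of 0.0924, and its 36 h pair was far apart, at 423 CPM in A, above the uninjured sections (226, 314 and 403 CPM), and 28.2 CPM in B.

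The growth hormone pathway that acts on Mup genes was followed through 18 genes, against the backgrounds given above. The number called lower was 6, 7 and 8 in time order, and Bcl6 at 36 h was the 1 call in the other direction, with list medians of -0.28, -0.59 and -0.47. Ghr, the growth hormone receptor, read 304, 300.4 and 302 CPM in the uninjured sections, 86.2 and 57.3 in the 24 h pair, 152 and 118 in the 36 h pair, and 142, 107, 99.2 and 128 in the 48 h sections. It was lowest at 24 h (log2 fold change -2.07 ± 0.21, adjusted p = 7.5e-05), with -1.16 and -1.34 at the later times. From 24 h to 36 h and to 48 h Ghr was called higher, whereas no member was, but both of these Ghr calls were lost without 24 h B (adjusted p = 0.116 and 0.147) and the first also without 36 h A (adjusted p = 0.0594). Stat5b, the transcription factor that carries the pulse signal, was lower at all 3 times (-0.90, -0.97 and -0.76, adjusted p of 0.0287, 0.0299 and 0.0222). Each of these calls was lost without some single section (adjusted p = 0.05003 to 0.128), and the 36 h value was -0.50 without 36 h B. Bcl6, a repressor that opposes STAT5 at many of its sites, read 3.83, 7.16 and 6.38 CPM in the uninjured sections, 48.8 CPM in 36 h A and 9.42 CPM in 36 h B. Its call at 36 h (2.33 ± 0.59, adjusted p = 0.0174) was lost without 36 h A, at a value of 0.70 (adjusted p = 0.288), and without 0 h replicate 2 (adjusted p = 0.0579), and the values of 0.00 and 0.38 at 24 h and 48 h were not called. Igfals, a growth hormone target that carries IGF1 in the blood, was lower at 24 h (-1.14 ± 0.29, adjusted p = 0.0109) and 48 h (-0.67 ± 0.24, adjusted p = 0.0393), the first call lost without 24 h B (adjusted p = 0.0738) and the second without any 1 of 6 sections (adjusted p = 0.0513 to 0.124). Cebpa, a hepatocyte transcription factor, was lower at 48 h (-0.77 ± 0.20, adjusted p = 0.00907).

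Many other male-biased liver genes were called lower. Of 13 listed, 12 were tested, and 7, 5 and 10 of them were called lower at 24, 36 and 48 h, beside 18.6%, 12.4% and 20.9% of all genes. Gstp1 was called higher at 24 h (background 23.1%), a call lost without any 1 of 6 sections (adjusted p = 0.0513 to 0.293). The list medians were -2.61, -2.09 and -2.20. Elovl3, a fatty acid elongase, read 351, 504 and 608 CPM in the uninjured sections, 9.42 and 3.92 in the 24 h pair, 3.10 and 3.17 in the 36 h pair, and 10.3, 12.3, 11.9 and 71.1 in the 48 h sections. As for the family sum, 48 h D was its highest injured section. Cyp4a12a, a male-specific cytochrome P450, read 238, 211 and 248 CPM before injury and 10.1, 3.62, 8.15 and 10.1 CPM in the 48 h sections (-4.86 ± 0.50, adjusted p = 9.6e-05). Its copy Cyp4a12b read 48.2, 54.7 and 51.7 CPM and then 2.06, 0.624, 1.15 and 2.99 CPM (-4.89 ± 0.56, adjusted p = 0.000158). Nudt7, a peroxisomal hydrolase, was lower at 24 h and 48 h (-3.31 and -2.76, adjusted p = 0.0333 and 0.0195), with the first call lost without 0 h replicate 2, 0 h replicate 4 or 24 h B (adjusted p = 0.0523 to 0.175) and the second without 48 h C (adjusted p = 0.0513). Of 13 female-biased genes 4 had enough counts to be tested. None was called at 24 h. At 36 h Cux2 was called higher (log2 fold change 2.69, background 16.8%) and none lower, but Cux2 had 8 UMIs in 36 h A and 96 in 36 h B, and without 36 h B the value was 0.02 and not called.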

How the data were processed

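Liver sections of 11 samples were measured by Visium (10x spatial 3′ chemistry, 10 µm cryosections). The authors deposited raw UMI counts per gene and barcode for all 4992 positions of a slide, made per the labels with Space Ranger 1.0.0 on mm10 and, per the study's methods, Ensembl gene models. Reads that map to several genes are not counted by that tool. Tissue-covered spots were kept by the limits of the study's methods, 800 detected genes or more and a mitochondrial share of 20% or less, and their counts were summed per section, since spots are not replicates.

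Groups came from the labels. The sums were fitted across all genes with edgeR 4.0.16 (R 4.3.3): filterByExpr, TMM scaling, 1 quasi-likelihood fit of all 11 sections, two-sided tests and Benjamini-Hochberg adjustment with a threshold of 0.05. CPM are UMIs per 1000000 of the TMM-scaled total. Zone classes came from spots thinned to 2000 UMIs and scored by the study's central (22 genes) and portal (11 genes) lists without Mup11 and Mup20, and their summed counts were compared within sections with the section as a block, or for 1 class over time as the section sums were. The steps were tested on simulated data. For Mup2, 95% intervals are exact for Poisson counts and the floor is 3 UMIs. Duplicate libraries were looked for and not found. Depth ranged from 31292663 to 67045372 UMIs a section.

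Alternatives were DESeq2 1.42.0, total-count scaling, no filter on low counts, only the groups compared, all tissue spots, outer classes of 5, textbook zone lists, the replicate letter as a block, all Mup genes in the sum, Alb alone as reference, and leaving out each section. Members and gene lists were chosen with earlier results of these data known. All 10 members are named. From each other list up to 4 genes are named, those with the largest log2 fold change at 48 h among called genes with a mean of at least 10 CPM (other Mup genes, 1 CPM). Bcl6, Mup21, Gstp1 and Cux2 fall outside that rule and were named after their values were seen. The 48 h result of the female-biased list is not reported here. Coding and transcript sequences came from the GRCm38 reference and promoters from RefSeq.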

Additional observations from a re-analysis of the deposited data

Results flagged for a closer look

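Among the 4 sections at 48 h, 13 sets of values (the members and the family sum in 3 forms) were searched for a section far from the others, with a limit of 0.829 on the gap to the nearest section divided by the range. Of these, 3 passed, each through the high value of 48 h D. They were Mup1 at 53.0 CPM, Mup10 at 58.7 CPM and Mup17 at 52.9 CPM. Chance passes about 1 in 20 such sets, and the members share sections and reads.

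The zone difference, the log2 fold change of the portal-rich over the portal-poor class, differed from that of 0 h by the edgeR test of the difference itself in 19 cases, all towards the portal side with TMM scaling. With total-count scaling the calls of Mup3 at 24 h and 36 h, Mup10 at 36 h, and Mup1 and Mup20 at 48 h were lost. That scaling also called Mup20 at 36 h the other way (-0.31, adjusted p = 0.00553 in the same test). The values that follow are those with TMM scaling. At 24 h the changes were 0.42 for Mup3, 0.57 for Mup7, 0.96 for Mup9 and 1.30 for Mup18. The 36 h changes were 0.42 for Mup3, 0.67 for Mup10, 0.75 for Mup7, 1.77 for Mup18, 1.98 for Mup9 and 2.20 for Mup17. The 48 h changes were 0.40 for Mup20, 0.65 for Mup1, 0.86 for Mup10, 0.97 for Mup3, 1.20 for Mup7, 1.44 for Mup17, 1.47 for Mup11, 1.85 for Mup9 and 2.15 for Mup18.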

How the results depend on the processing

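Of 1501 values of single members recomputed under the alternatives, 1373 kept their direction and side of the threshold, 115 kept the direction and lost the call, 13 kept the direction and gained one, and 0 called values changed direction. Of 797 further values, of members that were not called, 20 had the other sign. Calls gained among these 797 were not counted, although some alternatives gave them, as the counts that follow show. For 36 h against 24 h, where 2 members were called, total-count scaling gave 1, no filter on low counts 0 and only the 2 groups 0. For 48 h against 36 h DESeq2 called 2 where edgeR called 0. Leaving out 1 section gave 5 to 10 members for 36 h against 0 h, 0 to 5 for 36 h against 24 h, 0 to 1 for 48 h against 36 h, and 2 to 6 for 48 h against 24 h. It gave 3 to 6 for the portal-rich against the portal-poor class at 24 h, 3 to 6 for the change of the zone difference at 36 h, and 1 to 8 and 2 to 8 for the portal-rich class at 24 h and 36 h against 0 h. The family sum at 24 h, 17.8% of 0 h, was 22.3% with total-count scaling and 16.2% to 20.1% without 1 section, and that of 48 h, 15.7%, was 22.7% with total-count scaling. Per hepatocyte reference UMI the 24 h value of 24.4% was 22.5% to 27.6% without 1 section. The causes were not tested.

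Whether replicate letters pair the sections could not be settled. The deviations of same-lettered sections from their group means correlated at 0.46 between 24 h and 36 h. With 2 sections in each of these groups the A and B deviations mirror each other, so both letters give that same value. Between 24 h and 48 h the values were -0.17 for A and -0.17 for B, which the mirrored 24 h pair also ties together. Between 36 h and 48 h they were 0.02 for A and -0.26 for B. With the replicate letter as a block in a fit of the 8 injured sections, the contrasts of 36 h with 24 h, of 48 h with 36 h and of 48 h with 24 h had 2, 0 and 3 calls. The members differed. For 36 h against 24 h the block gave Mup17 (adjusted p = 0.0401) and Mup18 (adjusted p = 0.0486) in place of Mup9 and Mup11, and for 48 h against 24 h Mup18 in place of Mup1.

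With 2 sections at 24 h and at 36 h, single sections decide several calls, and Mup2 is limited by its few UMIs.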

Other observations

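Other lipocalins, secreted carriers of the same fold, moved in both directions. Of 10 listed, 9 were tested, with 4 called higher and 3 lower at 24 h, 2 and 2 at 36 h, and 3 and 4 at 48 h. Over all genes 23.1%, 16.8% and 23.3% were called higher and 18.6%, 12.4% and 20.9% lower. Lcn2, an iron-scavenging acute-phase protein, read 5.02, 2.25 and 7.51 CPM in the uninjured sections and 185, 331, 738 and 209 CPM in the 48 h sections (log2 fold change 6.22, adjusted p = 0.000543 in the edgeR test). Orm2, an acute-phase glycoprotein, read 14.6, 15.3 and 24.5 CPM and then 39.1, 61.6, 275 and 181 CPM (2.94, adjusted p = 0.00442). C8g, a chain of complement component C8, read 974, 1015 and 1015 CPM and then 498, 556, 447 and 511 CPM (-0.99, adjusted p = 0.000884). Apom, the apolipoprotein that carries sphingosine 1-phosphate, had a log2 fold change of -0.43 at 48 h (adjusted p = 0.0241), a call lost without any 1 of the 0 h sections or 48 h C (adjusted p = 0.0548 to 0.066).

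Over the 11 sections and 7080 genes outside the family, the log2 levels most like that of the family sum were those of Pja1 (Pearson r 0.974), Cyp4a12b (0.964), Pttg1 (0.959), Retreg3 (0.959) and Apoc1 (0.958). These values describe sections that fall into 2 sets, uninjured and injured, and carry no test. Off the tissue, the members took 4.72% to 6.26% of UMIs at barcodes of the uninjured sections and 0.752% to 2.15% at those of the injured sections.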
